A study of Mus musculus with 12 samples.

Results

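The Slc25a genes encode the mitochondrial carriers, the largest family of transporters in the mitochondrial inner membrane. They were taken as every row whose gene symbol was Slc25a followed by a number in the count tables of primary podocytes, the epithelial cells that wrap the capillaries of the kidney filter. That gave 46 genes of the 25316 listed, and the same 46 were listed at both ages. RNA sequencing compared knockout libraries (KO, genotype Cre+/Nsd2fl/fl) with floxed control libraries (Con, genotype Cre-/Nsd2fl/fl) at 20 and at 28 weeks of age. Both genotypes carried the floxed Nsd2 alleles, and all mice had diabetic injury induced with HFD and STZ, a high-fat diet and the beta-cell toxin streptozotocin. No group without diabetes was compared here. The design describes the knockout as specific to podocytes, but the Cre driver is not named in the labels. Each of the 4 groups held 3 libraries, and nothing in the labels ties them to different animals. The p-values therefore speak to the spread among libraries, part of which may be technical.

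Mitochondrial carriers are small proteins of similar fold that exchange or import metabolites, nucleotides, cofactors, phosphate and iron across the inner membrane, which is otherwise closed to them. They are encoded in the nucleus, made in the cytosol and inserted by a dedicated import route. In the kidney they are best known for supplying the oxidative metabolism of tubule cells. Podocytes use both glycolysis and mitochondrial respiration to keep up their foot processes.

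Total counts ran from 31405349 to 38989180 per library, so that a gene without reads may still have had 0.0732 to 0.0989 CPM (counts per library scaled to a common total, with TMM factors; 3 counts set this limit). All 14 podocyte markers examined were detected in every group, with a summed FPKM (fragments scaled by gene length and by library total) of 491 to 704 in KO and 222.5 to 406 in Con libraries at 20 weeks, and of 189 to 532 in KO and 321 to 561 in Con libraries at 28 weeks. Singly, 13 of the 14 had a positive log2 fold change at 20 weeks (median 1.16), with 7 called higher and 0 lower. At 28 weeks 6 were positive and 8 negative (median -0.13), with 0 called higher and 2 lower. Over all genes 4.79% were called higher at 20 weeks and 11.9% lower at 28 weeks. Markers of some other cells also differed between the genotypes. The 10 mesangial and smooth muscle markers summed to 4336 to 6327 FPKM in KO and 2282 to 2375 in Con libraries at 20 weeks, and to 3475 to 7451 in KO and 1343 to 1656 in Con libraries at 28 weeks. The 10 markers of simple epithelium, keratins and junction proteins among them, summed to 222 to 1246 FPKM in KO and 2318 to 4182 in Con libraries at 20 weeks. At 28 weeks they summed to 4175, 83.1 and 480.2 FPKM in KO libraries 1 to 3 and to 2788, 4775 and 4751 in Con libraries 1 to 3, so that KO library 1 stood at the level of the controls. The 9 leukocyte markers summed to 572 to 769 FPKM in KO and 67.0 to 96.3 in Con libraries at 28 weeks, and to 228 to 393 in KO and 72.0 to 368 in Con libraries at 20 weeks. Singly, all 9 had a positive log2 fold change at 28 weeks, with 3 called higher. At 20 weeks 3 were positive and 6 negative (median -0.61), and none was called. The loop, distal tubule and collecting duct markers summed to 10.8 to 23.8 FPKM in KO and 273 to 504 in Con libraries at 20 weeks, and to 8.87 to 1129.7 in KO and 233 to 734 in Con libraries at 28 weeks, with Pvalb at 0 throughout. Aqp2 was at 0 in all KO libraries and in the Con libraries of 28 weeks. Of the 12 markers, 3 to 8 were at 0 in a KO library and 2 to 5 in a Con library. Gata3 is in this list and in the mesangial and smooth muscle list. Proximal tubule markers summed to 3.90 to 8.88 and endothelial markers to 15.2 to 51.4 FPKM over all groups. The mean chi-square per gene between Con libraries 2 and 3 of 28 weeks was 4.56, against 74.1 to 223 in the other pairs of a group. They were kept as separate libraries, as labelled. They still differed by more than counting noise, but this does not show that they came from different animals. Calls with both summed to 1 library are therefore given beside the 28-week calls of members.

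Nsd2, a histone methyltransferase and the deleted gene, lies on chromosome 5 (GRCm38, chr5:33820725-33897975, plus strand). The 20-week levels were 51.7, 34.1 and 45.0 CPM in KO and 94.2, 66.6 and 79.0 CPM in Con libraries. The 28-week levels were 35.2, 35.2 and 42.9 CPM in KO and 87.2, 77.6 and 80.1 CPM in Con libraries. KO and Con levels did not overlap at either age, and transcripts remained in every KO library; reads of a floxed gene outside the deleted part count too. The log2 fold change of KO over Con was -0.88 (SE 0.21, adjusted p = 0.0402) at 20 weeks and -1.11 (SE 0.13, adjusted p = 0.00431) at 28 weeks, by edgeR's quasi-likelihood test with Benjamini-Hochberg adjustment. The 20-week call was lost without any single Con library and without KO library 2 or 3 (adjusted p 0.0729 to 0.164).

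Levels within the family were compared per length, as FPKM over the 12 libraries. A trio of carriers of the phosphorylation system led: Slc25a3, the phosphate carrier, at 359 FPKM on average, and the ADP/ATP carriers Slc25a4 and Slc25a5 at 299.8 and 268 FPKM. Their ranges over the 12 libraries overlapped, at 303 to 449 FPKM for Slc25a3, 251 to 368 for Slc25a4 and 202 to 377 for Slc25a5. Together they made up 65.0% to 69.2% of the summed FPKM of all members in each library. The citrate carrier Slc25a1 followed at 69.9 FPKM, and its range of 58.9 to 86.1 FPKM lay clear of the trio. Slc25a11 (49.0), Slc25a24 (45.2), the peroxisomal carrier Slc25a17 (43.7), Slc25a20 (37.0), Slc25a39 (36.2) and Slc25a51 (22.1 FPKM) came next. Copies of abundant carriers elsewhere in the genome can share reads with them, and how such reads were counted was not given in the sources used here.

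**Figure D1:**
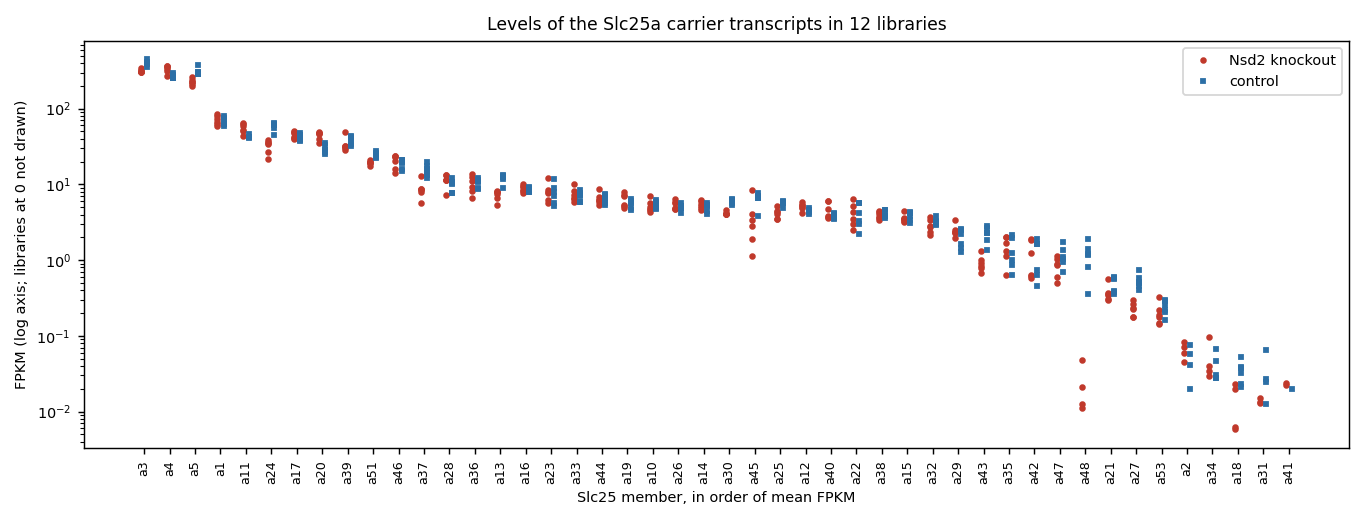
FPKM (log axis) of each Slc25a gene in the 6 KO libraries (circles) and the 6 control libraries (squares) of both ages, genes ordered by mean FPKM, libraries at 0 left out. Slc25a3, Slc25a4 and Slc25a5 lie at or above 202 FPKM in all libraries, and Slc25a48 and Slc25a27 stand apart between KO and control.

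At the low end, 5 members did not pass the filter on low counts at either age and were not tested: Slc25a2, Slc25a18, Slc25a31, Slc25a34 and Slc25a41. The highest count of any of them in a library was 9. Slc25a31 is the ADP/ATP carrier known from testis, and Slc25a18 a glutamate carrier. The summed FPKM of all members was 1178 to 1445 in KO and 1370 to 1626 in Con libraries at 20 weeks, and 1348 to 1409 in KO and 1411 to 1426 in Con libraries at 28 weeks. The groups overlapped at 20 weeks; at 28 weeks the highest KO library lay barely below the lowest control.

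Of the 41 members tested at each age, 5 were lower in KO libraries at 20 weeks and none was higher, a share of 12.2%; over all genes 9.92% were called, 4.79% higher and 5.13% lower. At 28 weeks 3 members were higher and 5 lower, a share of 19.5%, where 21.2% of all genes were called, 9.33% higher and 11.9% lower. The family was thus called about as often as genes in general, and its median log2 fold change was 0.01 at 20 weeks and 0.03 at 28 weeks, against 0.01 and 0.07 over all genes. Fold changes had both signs, 22 positive and 19 negative at 20 weeks and 23 positive and 18 negative at 28 weeks. KO and Con levels did not overlap for 14 members at 20 weeks, 2 above and 12 below (32.2% of all genes, 15.5% above and 16.7% below). At 28 weeks 18 did not overlap, 7 above and 11 below (42.2% of all genes, 19.3% above and 22.8% below). With Con libraries 2 and 3 at 28 weeks summed, 1 member (Slc25a20) was called higher and 1 (Slc25a48) lower. Calls over all genes also fell there, to 456 higher and 843 lower of 15291 tested. Fewer cells of a type and less RNA per cell cannot be told apart in these bulk libraries.

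**Figure D2:**
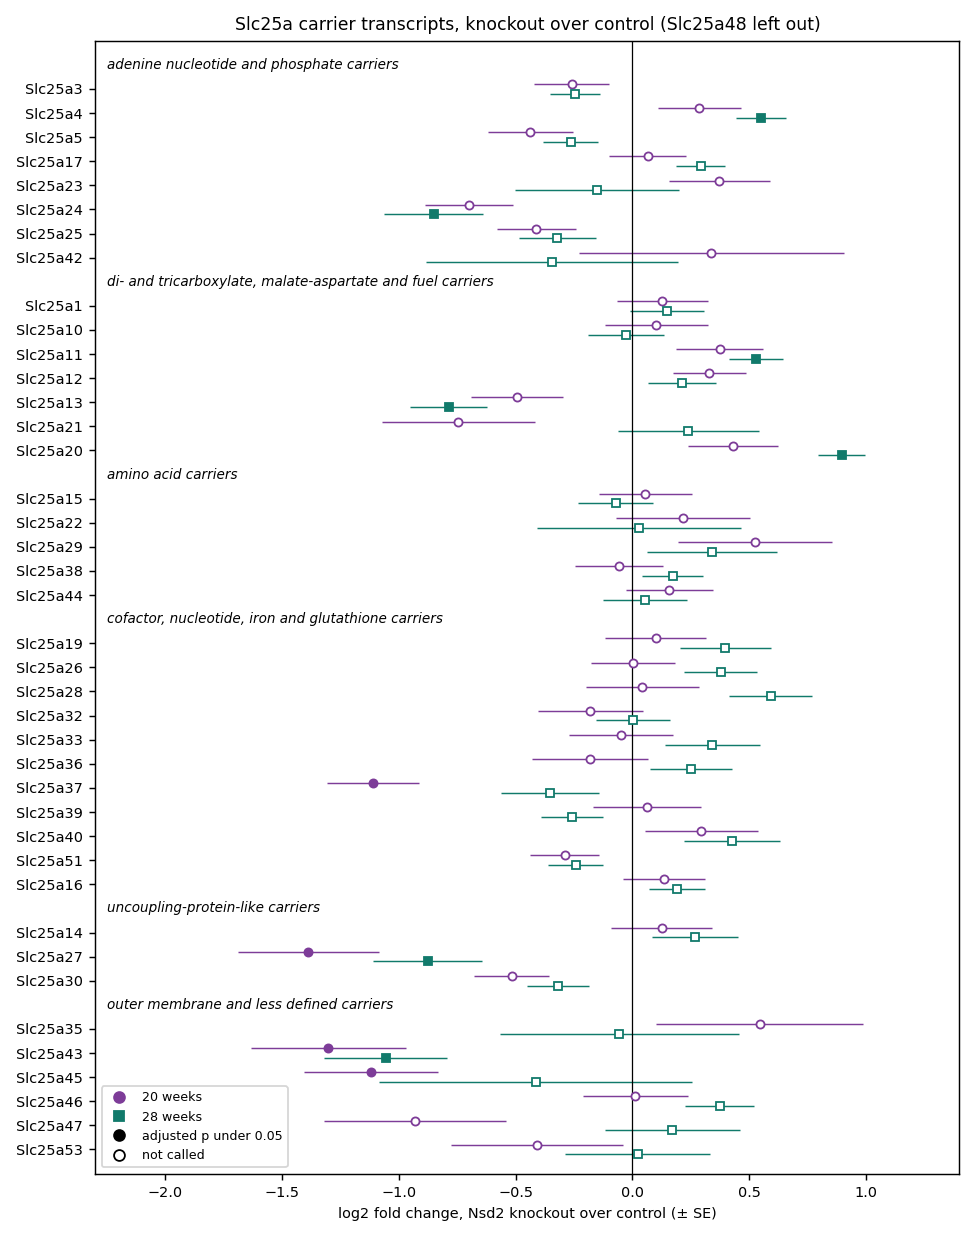
Log2 fold change of KO over control (± SE) of the tested Slc25a genes at 20 weeks (circles) and 28 weeks (squares), grouped by the substrate class, filled where the adjusted p was under 0.05. Slc25a48, at -6.45 and -5.83, lies far left of this axis and is left out; most symbols lie within 0.5 of 0.

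Slc25a48 showed the largest fall. It encodes a carrier of the inner membrane that has been reported to take choline into mitochondria, and lies on chromosome 13 (GRCm38, chr13:56438355-56474239, plus strand). At 20 weeks it had 2, 0 and 0 counts in KO and 33, 105 and 78 counts in Con libraries. At 28 weeks it had 4, 1 and 1 counts in KO and 187, 119 and 139 counts in Con libraries. All 6 KO libraries were thus at or next to 0, while every control library held at least 33 counts. In CPM the KO libraries reached at most 0.0553 at 20 weeks and 0.125 at 28 weeks, against 0.856 to 2.89 in Con libraries at 20 weeks and 2.90 to 4.79 at 28 weeks.

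On summed counts scaled by library size, Slc25a48 was 102-fold lower in KO libraries at 20 weeks (95% counting interval 27.9 to 848) and 60.1-fold lower at 28 weeks (27.4 to 165). The fitted log2 fold change was -6.45 (SE 0.94, adjusted p = 0.00721) at 20 weeks and -5.83 (SE 0.56, adjusted p = 0.00324) at 28 weeks; its size rests on few reads in KO libraries. Without single libraries it ran from -9.15 to -5.92 at 20 weeks and from -6.78 to -5.52 at 28 weeks; the lower ends came without KO library 1, which left only libraries at 0 at 20 weeks. The call held without each library in turn, with adjusted p 0.00444 to 0.0412 at 20 weeks and 0.00370 to 0.0221 at 28 weeks. It also held with Con libraries 2 and 3 at 28 weeks summed (adjusted p = 0.0208). Even in the controls the transcript was scarce, at 0.856 to 4.79 CPM over both ages. The mean over all 12 libraries, with the KO libraries near 0 included, was 0.575 FPKM. KO library 1 of 28 weeks, whose simple epithelium markers were as high as in the controls, had 4 counts of Slc25a48, against 119 to 187 in the controls of that age. At 20 weeks KO library 1 summed to 1246 FPKM of these markers, against 230 and 222 in KO libraries 2 and 3. That library held the 2 counts of Slc25a48 found in KO libraries of that age. These are single libraries, and the part of such cells in the level of Slc25a48 was not tested.

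The bases before the annotated start are shown for the 6 called carriers for which RefSeq's promoter table left at least 150 bases before both the RefSeq and the GENCODE start, to give the sequence context of the falls (Slc25a48, Slc25a43, Slc25a45, Slc25a24, Slc25a13) and of a rise (Slc25a20). They are from RefSeq, build GRCm38.p6, read on the strand of the gene, and end at the base before the earlier of these starts. Slc25a48 is chr13:56438105-56438354 (plus), Slc25a43 chrX:36743382-36743631 (plus), Slc25a45 chr19:5877572-5877807 (plus), Slc25a24 chr3:109122899-109123148 (plus), Slc25a13 chr6:6217174-6217423 (minus) and Slc25a20 chr9:108661886-108662087 (plus). Capitals mark matches to the motifs searched.
Slc25a48: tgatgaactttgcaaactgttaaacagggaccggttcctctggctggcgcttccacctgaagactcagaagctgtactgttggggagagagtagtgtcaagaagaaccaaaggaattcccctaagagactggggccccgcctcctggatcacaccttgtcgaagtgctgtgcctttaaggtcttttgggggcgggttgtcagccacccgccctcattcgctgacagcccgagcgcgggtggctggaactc
Slc25a43: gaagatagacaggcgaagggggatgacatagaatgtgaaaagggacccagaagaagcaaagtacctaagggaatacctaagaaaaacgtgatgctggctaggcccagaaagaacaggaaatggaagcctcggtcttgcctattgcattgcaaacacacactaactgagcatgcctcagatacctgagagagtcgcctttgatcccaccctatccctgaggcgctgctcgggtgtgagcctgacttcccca
Slc25a45: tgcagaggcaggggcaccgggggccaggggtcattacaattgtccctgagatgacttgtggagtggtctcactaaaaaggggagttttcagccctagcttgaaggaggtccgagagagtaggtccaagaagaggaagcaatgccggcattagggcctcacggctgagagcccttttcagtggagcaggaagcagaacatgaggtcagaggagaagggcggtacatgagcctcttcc
Slc25a24: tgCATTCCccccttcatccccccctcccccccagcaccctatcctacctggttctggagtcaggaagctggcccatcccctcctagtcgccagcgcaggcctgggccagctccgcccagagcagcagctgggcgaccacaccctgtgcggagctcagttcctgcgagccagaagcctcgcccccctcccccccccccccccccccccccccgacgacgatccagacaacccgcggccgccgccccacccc
Slc25a13: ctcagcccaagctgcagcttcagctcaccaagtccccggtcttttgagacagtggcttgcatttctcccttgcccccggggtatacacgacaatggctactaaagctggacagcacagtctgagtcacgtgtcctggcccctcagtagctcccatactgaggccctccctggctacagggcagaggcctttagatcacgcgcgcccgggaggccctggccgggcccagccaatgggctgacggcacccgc
Slc25a20: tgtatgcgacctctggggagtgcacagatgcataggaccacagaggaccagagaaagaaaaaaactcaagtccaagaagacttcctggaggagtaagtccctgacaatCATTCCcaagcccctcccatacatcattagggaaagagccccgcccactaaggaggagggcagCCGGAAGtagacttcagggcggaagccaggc
Searched on both strands were CCGGAAG (GABPA and other ETS factors), AAGGTCA (estrogen-related receptors) and GGAATG (TEAD, the factors that Hippo signalling acts on; CATTCC when read on the other strand); these motifs do not overlap one another in the windows shown. In these windows, CATTCC stood before Slc25a24 and Slc25a20, and CCGGAAG before Slc25a20. Windows of 250 bases of all genes held GGAATG in 12.6% of cases, CCGGAAG in 6.91% and AAGGTCA in 4.08%. Of the 45 windows of 35 listed members, 8 held GGAATG (17.8%), 5 CCGGAAG (11.1%) and 1 AAGGTCA (2.22%). No match was found before Slc25a48, Slc25a43, Slc25a45 and Slc25a13, which says only that these letters are not in these windows.

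Both other members called at each age were also scarce carriers that were lower in KO libraries. Slc25a27 is the uncoupling-protein-like carrier known mainly from neurons (chr17:43641891-43667214, minus strand). It was at 2.21, 2.24 and 3.21 CPM in KO and 8.48, 6.09 and 5.51 CPM in Con libraries at 20 weeks. At 28 weeks it was at 3.76, 2.90 and 2.80 CPM in KO and 4.89, 6.63 and 5.87 CPM in Con libraries. No KO library reached the lowest control at either age. The log2 fold change was -1.39 (SE 0.30, adjusted p = 0.0273) at 20 weeks and -0.88 (SE 0.23, adjusted p = 0.0423) at 28 weeks. These calls depended on single libraries: at 20 weeks the adjusted p was 0.0582 to 0.0995 without Con library 1 or 2 or KO library 2 or 3, and at 28 weeks 0.0571 to 0.162 without any Con library or KO library 2 or 3. With Con libraries 2 and 3 of 28 weeks summed it was 0.145.

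Slc25a43, a carrier without a settled substrate, lies on the X chromosome (chrX:36743659-36777202, plus strand), next to Slc25a5 (chrX:36795651-36798807, plus strand). It was at 2.05, 2.38 and 2.96 CPM in KO and 7.75, 6.50 and 3.98 CPM in Con libraries at 20 weeks. Levels at 28 weeks were 3.95, 2.51 and 2.69 CPM in KO and 5.38, 7.29 and 6.35 CPM in Con libraries. Again no KO library reached the lowest control. The log2 fold change was -1.30 (SE 0.33, adjusted p = 0.0458) at 20 weeks and -1.06 (SE 0.26, adjusted p = 0.0346) at 28 weeks. Its neighbour Slc25a5 had -0.44 (adjusted p = 0.181) and -0.27 (adjusted p = 0.168) and was not called. The Slc25a43 call was lost at 20 weeks without Con library 1 or 2 or any KO library (adjusted p 0.0810 to 0.149), and at 28 weeks without any Con library or KO library 2 or 3 (0.0556 to 0.132) and with Con libraries 2 and 3 summed (0.119).

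Calls in the same direction at both ages were thus made for 3 of 41 members, against 4.78% of all genes tested at both ages. Over the 41 members the fold changes of the ages had a Pearson correlation of 0.94, or 0.67 without Slc25a48, and a Spearman correlation of 0.59. Over all 14567 genes these were 0.71 and 0.58. The sign was the same at both ages for 28 members (68.3%) and for 70.1% of all genes. No library is shared between the ages, but genes are not independent replicates. The summed mesangial and smooth muscle markers were higher in every KO than in every Con library at both ages. The other marker sums overlapped between the genotypes at 20 weeks, at 28 weeks or at both.

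**Figure D3:**
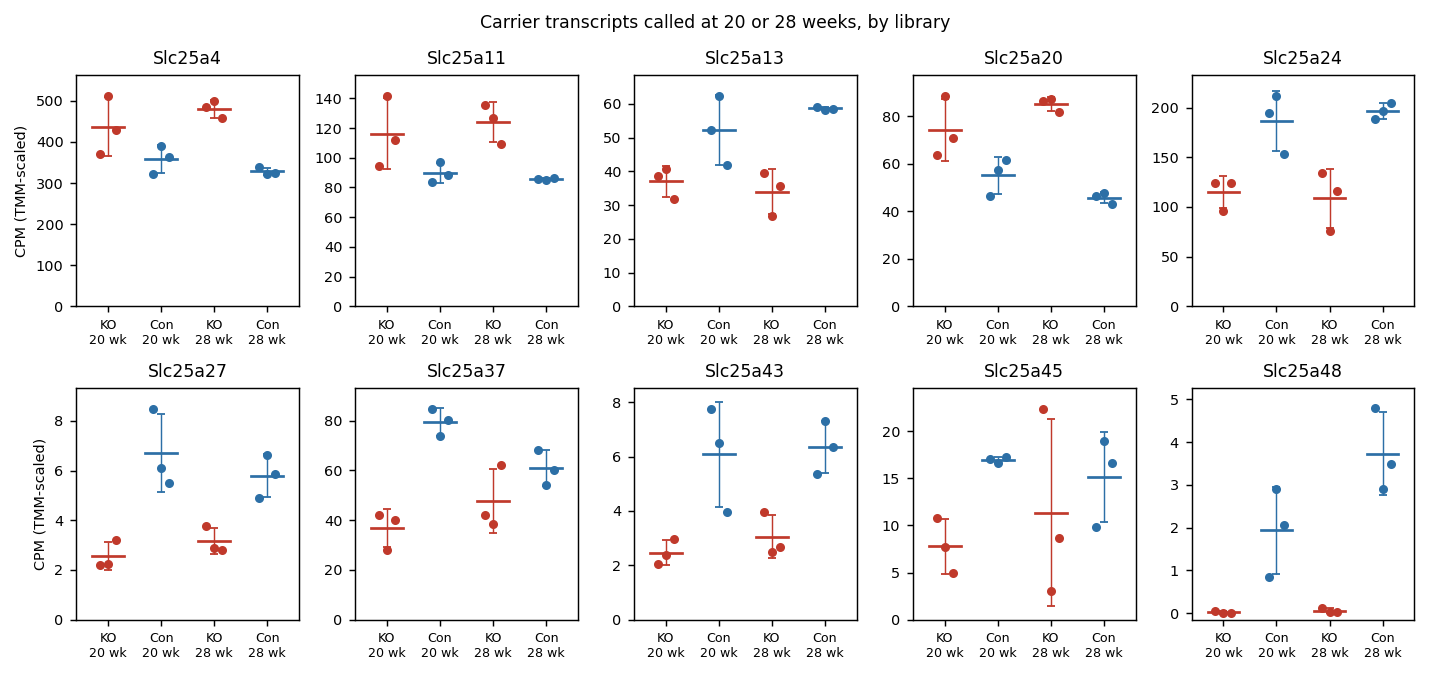
CPM of the 10 Slc25a genes called at 20 or 28 weeks, with a point for each library and the mean ± SD of 3 libraries, KO left of control at each age. Slc25a48 is near 0 in all KO libraries, Slc25a20 rises clear of the controls at 28 weeks, and Slc25a45 in KO at 28 weeks spans 3.03 to 22.4 CPM.

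Among iron, cofactor and nucleotide carriers, only Slc25a37 was called of the 11 tested, at 20 weeks, when 9.92% of all genes were called. It encodes mitoferrin, which brings iron into mitochondria for heme and iron-sulfur cluster synthesis and is best known from red cell precursors (chr14:69241848-69285112, minus strand). At 20 weeks it was at 42.2, 28.0 and 40.2 CPM in KO and 84.8, 73.7 and 80.2 CPM in Con libraries, a log2 fold change of -1.11 (SE 0.20, adjusted p = 0.0130) with wide separation of the groups. The 28-week levels were 42.2, 38.5 and 62.2 CPM in KO and 68.4, 54.1 and 60.2 CPM in Con libraries. KO library 3 then lay among the controls, and the log2 fold change of -0.35 (adjusted p = 0.290) was not called. Without that library it was -0.64 (adjusted p = 0.0304), and without Con library 1 the 20-week call was lost (adjusted p = 0.0777). Of the genes that overlap the exons of Slc25a37, the one with the largest overlap shares 6.33% of their bases. The strand setting of the counting was not given in the sources used here. Slc25a28, the second mitoferrin, was at 26.0, 22.5 and 21.9 CPM in KO and 19.1, 13.7 and 13.9 CPM in Con libraries at 28 weeks; its log2 fold change of 0.59 (adjusted p = 0.0602) missed the threshold, but was called by DESeq2 (0.0132) and, at 0.76, without Con library 1 (0.0319).

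Slc25a45, a carrier with a less defined substrate (chr19:5877808-5885878, plus strand), was lower at 20 weeks, at 10.8, 7.66 and 4.95 CPM in KO and 17.0, 16.6 and 17.2 CPM in Con libraries. The log2 fold change was -1.12 (SE 0.29, adjusted p = 0.0474), and the call was lost without any Con library or KO library 2 or 3 (adjusted p 0.0957 to 0.144). At 28 weeks it was at 22.4, 3.03 and 8.69 CPM in KO and 9.85, 19.0 and 16.6 CPM in Con libraries, with a log2 fold change of -0.41 (adjusted p = 0.714). KO library 1 of that age was above all controls and KO libraries 2 and 3 below them. The same library held the highest sum of simple epithelium markers of the 6 KO libraries, 4175 FPKM. Of the KO libraries of 20 weeks, library 1 had the highest sum of these markers, 1246 FPKM, and the highest Slc25a45, 10.8 CPM. Whether such cells account for the level of Slc25a45 was not tested.

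**Figure D4:**
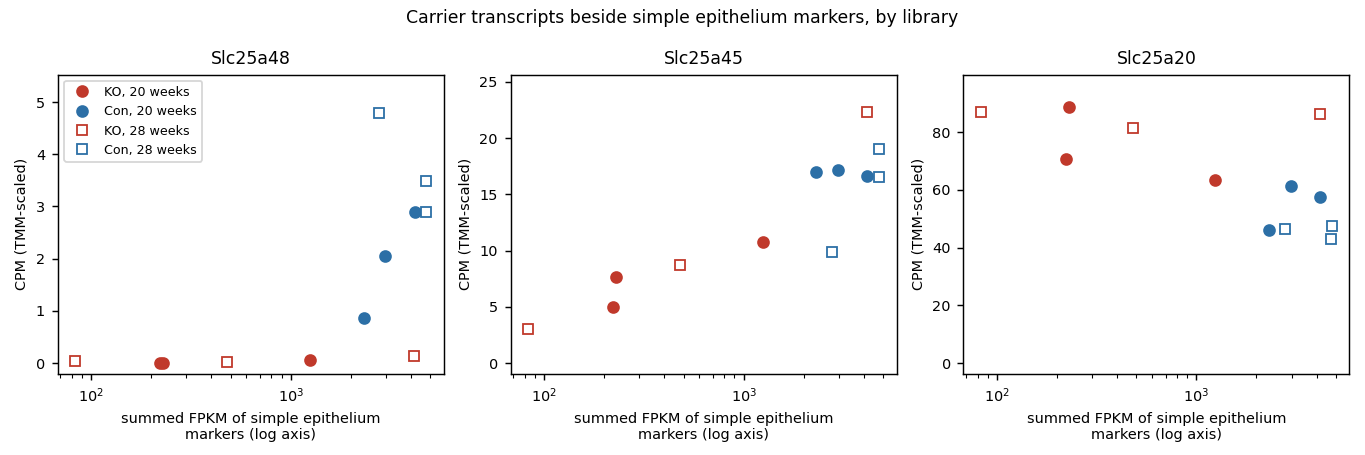
CPM of Slc25a48, Slc25a45 and Slc25a20 (vertical) against the summed FPKM of the 10 simple epithelium markers (horizontal, log axis) in each library, filled circles for 20 weeks and open squares for 28 weeks. KO library 1 of 28 weeks, at 4175 FPKM of markers, has the highest Slc25a45 level of all. Its Slc25a48 is near 0 and its Slc25a20 at the level of the other KO libraries of that age.

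The carriers of fuel and of the malate-aspartate shuttle, 7 tested genes, had no call at 20 weeks and 2 higher and 1 lower at 28 weeks. Over all genes 9.92% were called at 20 weeks, and 9.33% were higher and 11.9% lower at 28 weeks. Slc25a20 is the carnitine-acylcarnitine carrier, which brings fatty acyl groups into the matrix for beta-oxidation (chr9:108662088-108684641, plus strand). It was at 86.4, 87.1 and 81.6 CPM in KO and 46.6, 47.6 and 43.0 CPM in Con libraries at 28 weeks. Levels at 20 weeks were 63.5, 88.6 and 70.6 CPM in KO and 46.2, 57.5 and 61.5 CPM in Con libraries. The groups did not overlap at either age, with a wide gap at 28 weeks and a narrow one at 20 weeks. The log2 fold change was 0.43 (SE 0.19, adjusted p = 0.212) at 20 weeks and 0.90 (SE 0.10, adjusted p = 0.00418) at 28 weeks. The 28-week call held without each library in turn (adjusted p 0.00856 to 0.0309) and with Con libraries 2 and 3 summed (0.0287).

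Slc25a11 exchanges oxoglutarate for malate in the malate-aspartate shuttle, and Slc25a13, also called citrin, exchanges aspartate for glutamate in it. Slc25a11 (chr11:70644196-70647479, minus strand) was at 136, 127 and 109 CPM in KO and 85.9, 85.3 and 86.1 CPM in Con libraries at 28 weeks, a log2 fold change of 0.53 (SE 0.12, adjusted p = 0.0222). The 20-week levels were 94.7, 142 and 112 CPM in KO and 83.5, 96.8 and 88.6 CPM in Con libraries, with overlap and no call (0.37, adjusted p = 0.267). Slc25a13 (chr6:6041218-6217173, minus strand) moved the other way. It was at 39.6, 26.7 and 35.7 CPM in KO and 59.1, 58.2 and 58.6 CPM in Con libraries at 28 weeks, a log2 fold change of -0.79 (SE 0.16, adjusted p = 0.0196). At 20 weeks it was at 38.7, 40.6 and 31.9 CPM in KO and 52.3, 62.4 and 42.0 CPM in Con libraries, which did not overlap but gave no call (-0.49, adjusted p = 0.166). Slc25a12, or aralar, the other aspartate-glutamate carrier, was not called at either age (0.33 and 0.21). At 28 weeks the Slc25a11 call was lost without any Con library or KO library 2 (adjusted p 0.0582 to 0.0995) and the Slc25a13 call without any Con library (0.0542 to 0.0755). With Con libraries 2 and 3 summed they had adjusted p 0.0972 and 0.0729. Slc25a11 shares 189 bases (8.92%) of its exons with Rnf167.

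Of 8 tested adenine nucleotide and phosphate carriers, none was called at 20 weeks, and Slc25a4 rose and Slc25a24 fell at 28 weeks. Over all genes 9.92% were called at 20 weeks and 21.2% at 28 weeks. Slc25a4 is the ADP/ATP carrier typical of heart and muscle (chr8:46206797-46211284, minus strand). It was at 484, 500.4 and 458 CPM in KO and 339, 323 and 323 CPM in Con libraries at 28 weeks, a log2 fold change of 0.55 (SE 0.11, adjusted p = 0.0155). Levels at 20 weeks were 370.1, 513 and 429 CPM in KO and 321, 391 and 364 CPM in Con libraries, where the groups overlapped (0.29, adjusted p = 0.373). The 28-week call was lost without Con library 2 (adjusted p = 0.0877) or 3 (0.0897) and with the pair summed (0.0866). Mesangial and smooth muscle markers also stood higher in every KO library at both ages, and their part in the level of Slc25a4 was not tested.

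Slc25a24 is a calcium-regulated carrier that exchanges ATP-magnesium for phosphate (chr3:109123149-109168457, plus strand). It was at 134, 75.9 and 116 CPM in KO and 188, 196 and 204 CPM in Con libraries at 28 weeks, and at 124, 95.9 and 124 CPM in KO and 195, 212 and 153 CPM in Con libraries at 20 weeks. KO levels lay below all controls at both ages. The log2 fold change was -0.85 (SE 0.21, adjusted p = 0.0346) at 28 weeks and -0.70 (SE 0.19, adjusted p = 0.0554) at 20 weeks, so that the 20-week change missed the threshold. At 28 weeks it was no longer called without any Con library or KO library 3 (adjusted p 0.0618 to 0.111) and with Con libraries 2 and 3 summed (0.107).

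The other most abundant carriers were not called. Slc25a3 was at 541, 618 and 531 CPM in KO and 660.2, 759 and 605 CPM in Con libraries at 20 weeks, and at 578, 545 and 556 CPM in KO and 665, 659.8 and 667 CPM in Con libraries at 28 weeks. Its log2 fold changes were -0.26 (adjusted p = 0.373) and -0.25 (adjusted p = 0.155). Slc25a5, the ADP/ATP carrier of growing cells, was at 271, 325 and 282 CPM in KO and 343, 480.2 and 366 CPM in Con libraries at 20 weeks, and at 350.3, 303 and 292 CPM in KO and 375, 376 and 384 CPM in Con libraries at 28 weeks. KO levels of Slc25a5 lay below all controls at both ages. Slc25a1 was at 103, 151 and 114 CPM in KO and 113, 125 and 98.3 CPM in Con libraries at 20 weeks, and at 109.9, 125 and 137 CPM in KO and 134, 99.2 and 102 CPM in Con libraries at 28 weeks, with overlap throughout.

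The proportion of the ADP/ATP carrier pair was worked out after the values of both genes had been seen, and is given as a description. Slc25a4 made up 57.0%, 60.5% and 59.7% of the FPKM of Slc25a4 and Slc25a5 together in KO and 47.6%, 44.2% and 49.1% in Con libraries at 20 weeks. At 28 weeks it made up 57.3%, 61.6% and 60.4% in KO and 46.8%, 45.5% and 45.0% in Con libraries. All 6 KO libraries were above all 6 controls. At 20 weeks neither gene was called by itself.

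**Figure D5:**
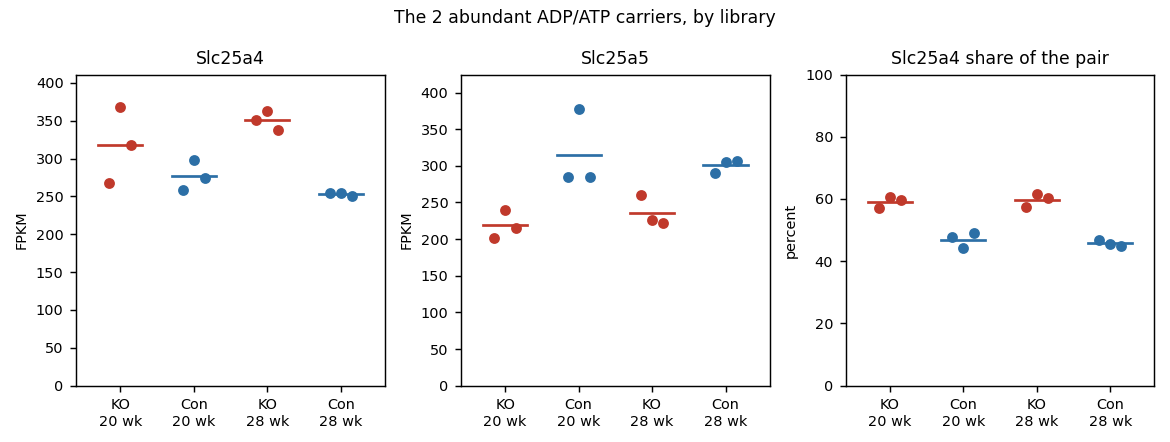
FPKM of the ADP/ATP carriers Slc25a4 and Slc25a5 and the share of Slc25a4 in their sum (percent), by library, with a point for each of 3 libraries and a line at the mean, KO left of control at each age. The share lies at 57.0% to 61.6% in KO and 44.2% to 49.1% in control libraries.

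The 5 tested amino acid carriers, such as the ornithine carrier Slc25a15 and the basic amino acid carrier Slc25a29, had no call at either age; their log2 fold changes ran between -0.06 and 0.53 at 20 weeks and between -0.07 and 0.34 at 28 weeks. Of the cofactor, nucleotide and iron carriers 10 of 11 had no call at 20 weeks, and none of the 11 had one at 28 weeks, where their median log2 fold change was 0.25. Over all genes 9.92% were called at 20 weeks and 21.2% at 28 weeks, with a median of 0.07 at 28 weeks. Among the members without a call, the largest changes at 20 weeks were in Slc25a47 (-0.93, adjusted p = 0.185) and the oxodicarboxylate carrier Slc25a21 (-0.75, adjusted p = 0.203). At 28 weeks they were in Slc25a28 and the glutathione carrier Slc25a40 (0.43, adjusted p = 0.201). Of the uncoupling-protein-like carriers, Slc25a14 and Slc25a30 were not called at either age. Slc25a30 had a log2 fold change of -0.52 at 20 weeks (adjusted p = 0.0865), with KO libraries below all controls, and was called lower there by DESeq2 (0.0389), with a filter of 1 CPM (0.0460), without TMM (0.0460) and in the model of 12 libraries (0.0180).

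No member was called for a change of the KO effect between the ages, or for a change from 20 to 28 weeks within either genotype. edgeR called 0 of 15662 genes (0.00%) in each of these 3 contrasts. At an unadjusted p under 0.05 there were 1428 genes (9.12%) for the change of effect, 1759 (11.2%) for age in KO and 466 (2.98%) for age in Con libraries; the members numbered 4, 2 and 0. DESeq2 called 25 genes for the change of effect, 36 for age in KO and 1 for age in Con libraries, with no member among them. The members with the smallest p for the change of effect were Slc25a20 (log2 difference 0.48), Slc25a21 (0.99) and Slc25a47 (1.12), all with an edgeR adjusted p = 0.538. In KO libraries the smallest were Slc25a26, the S-adenosylmethionine carrier (0.35, adjusted p = 0.429), Slc25a17 (0.29, adjusted p = 0.432) and Slc25a53 (0.66, adjusted p = 0.448). In Con libraries they were Slc25a21 (-0.58), Slc25a15 (0.32) and Slc25a20 (-0.25), each with adjusted p = 1.00. A call at one age alone is thus not shown to differ between the ages. Age and deposited table coincide, so a handling difference between the tables cannot be told apart from age.

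Around the family, the other transport proteins of the mitochondrial membranes had no call at 20 weeks and 7 of 16 higher (43.8%) and none lower at 28 weeks, where 9.33% of all genes were called higher. Of the 16, 10 had a positive and 6 a negative log2 fold change at 28 weeks, from -0.49 to 1.02. Among the 7 called were Smdt1, a subunit of the calcium uniporter (0.62, adjusted p = 0.00731), Mpc1, of the pyruvate carrier (0.72, adjusted p = 0.0109), and Mcub, a further uniporter gene (1.02, adjusted p = 0.0236). Mpc1 was at 39.9, 43.4 and 37.6 CPM in KO and 24.7, 22.7 and 26.3 CPM in Con libraries at 28 weeks, without overlap. At 20 weeks Mcub (0.61, adjusted p = 0.0978) and Micu2 (0.36, adjusted p = 0.189) came closest. The count at 28 weeks depended on the controls: it was 1 of 16 with Con libraries 2 and 3 summed, and 2, 0 and 2 without Con library 1, 2 or 3. It was also 5, 2 and 4 without KO library 1, 2 or 3. Calls over all genes fell too, to 456 higher and 843 lower of 15291 tested with the pair summed. Without Con library 1, 2 or 3 they were 882, 450 and 444 higher and 1091, 838 and 822 lower.

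Enzymes that make or use the carriers' substrates, 22 tested, had 1 higher and 1 lower at 20 weeks, where 4.79% and 5.13% of all genes were. At 28 weeks 1 was higher and 6 were lower, where 9.33% of all genes were higher and 11.9% lower. Cpt1a, which makes the acylcarnitines that Slc25a20 carries, was higher at 20 weeks (0.71, adjusted p = 0.0272) and had 0.35 (adjusted p = 0.618) at 28 weeks. Mthfd2, of mitochondrial folate metabolism, was lower at both ages (-0.65, adjusted p = 0.0423, and -1.01, adjusted p = 0.00913). At 28 weeks Oat, which breaks down ornithine, was higher (0.76, adjusted p = 0.00988), and the serine-folate enzyme Shmt2 was lower (-0.95, adjusted p = 0.0104). With Con libraries 2 and 3 summed, 2 of the 7 enzyme calls at 28 weeks were left. Calls over all genes then fell to 456 higher and 843 lower of 15291 tested. The count of enzyme calls was 3, 2 and 2 without Con library 1, 2 or 3, and 6, 4 and 7 without KO library 1, 2 or 3. Both 20-week calls were lost without any single Con library or KO library 2 or 3.

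Of 13 genes of the carriers' import route, 1 was called at each age, where 9.92% of all genes were called at 20 weeks and 21.2% at 28 weeks. Timm8a1 was lower at 20 weeks (-0.82, adjusted p = 0.0488) and Timm10b higher at 28 weeks (0.40, adjusted p = 0.0465). Both calls were lost when any single library was left out (adjusted p 0.0572 to 0.212 and 0.0692 to 0.184), the second also with Con libraries 2 and 3 of 28 weeks summed (0.168). Family members under other symbols had no call at 20 weeks, with Mtch1 at 0.43 (adjusted p = 0.203) and the uncoupling protein Ucp2 at 0.50 (adjusted p = 0.301). At 28 weeks Mtch1, an outer membrane relative of the carriers, was higher (0.72, adjusted p = 0.0138), a call lost without Con library 2 (0.0661) or 3 (0.0713) and with both summed (0.0683). Of 10 regulators of mitochondrial gene programmes, only Ppargc1a, the coactivator that drives mitochondrial biogenesis, was called. It was at 0.719, 0.227 and 0.512 CPM in KO and 1.84, 2.76 and 1.77 CPM in Con libraries at 20 weeks, and at 0.909, 0.132 and 0.686 CPM in KO and 3.12, 2.56 and 2.66 CPM in Con libraries at 28 weeks. Its log2 fold change was -2.12 (SE 0.48, adjusted p = 0.0323) and -2.26 (SE 0.60, adjusted p = 0.0426), with no overlap at either age. The 20-week call was lost without any Con library or KO library 2 or 3 (adjusted p 0.0504 to 0.114), and the 28-week call without any Con library or KO library 3 (0.0857 to 0.113) and with Con libraries 2 and 3 summed (0.109).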

How the data were processed

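Per the file headers, the authors deposited for each age 1 table of unnormalised counts of reads, by gene symbol, and 1 table of FPKM. The deposited FPKM use the same length for a gene in all libraries of its table (relative tolerance 1e-06). The build was GRCm38 (mm10), per the submitters' processing notes; aligner, counter, strand setting and annotation were not given in the sources used here. RNA came from a Qiagen RNeasy kit and libraries from a SMARTER mRNA kit, per the labels' protocols; all libraries have the same batch label. From the counts, all genes of an age entered 1 fit of edgeR 4.0.16 (R 4.3.3), with TMM factors, filterByExpr, the quasi-likelihood F test and Benjamini-Hochberg adjustment over all genes tested, and a gene was called at an adjusted p under 0.05. Adjusted p-values in the text come from this fit except where a tool is given. CPM use TMM-scaled library sizes, and the SE is the log2 fold change over the root of the F statistic. Contrasts across ages came from 1 edgeR model of 12 libraries. The fits were also run on simulated counts of independent libraries, with the same spread for all genes and changes set in genes of higher counts. Such data do not resemble the alike Con libraries 2 and 3 of 28 weeks or scarce genes, so they say nothing about those. Alternatives used DESeq2 1.42.0, limma 3.58.1 on log2(FPKM + 0.5) and log2(FPKM + 0.1), other filters and scaling, a replicate block, Con libraries 2 and 3 of 28 weeks summed, and each library left out in turn.

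Intervals and limits from counts cover counting error only, since PCR copies cannot be recognised. Loci are from GENCODE M21 on GRCm38. The members, lists and tests were chosen with earlier results of these data known. Values per library are given for Nsd2, for members called at either age and for the members of highest mean FPKM; of the other members, the pair with the largest change at each age is named. Of each surrounding list, up to 4 called genes with the smallest p are named, or up to 2 without a call; some genes that met this rule are not reported here. Values per library of Slc25a28, Mpc1 and Ppargc1a, and Slc25a12, Slc25a14, Slc25a29 and Slc25a30, were added after their values had been seen. The short promoter motifs were chosen after longer motifs had been searched, which are not reported here.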

Additional observations from a re-analysis of the deposited data

How the results depend on the processing

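At 20 weeks 1473 genes were called; DESeq2 called 2400, and leaving out each library in turn gave 517 to 2023 genes and 1 to 4 members lower, with 0 members higher throughout. The split of all calls was 711 higher and 762 lower with edgeR, and 670 higher and 1132 lower with limma on log2(FPKM + 0.5). At 28 weeks 3183 genes were called, 1299 with Con libraries 2 and 3 summed (1 member higher, 1 lower), and 1266 to 3374 with each library left out, with 1 to 3 members higher and 1 to 5 lower; the fewest came without Con library 3. For the contrasts over ages DESeq2 called 25 genes for the change of effect, 36 for age in KO and 1 for age in Con libraries, and leaving out libraries gave 0 to 4 for age in KO; no member was called. Slc25a48 was called at both ages wherever it was tested; a filter of 1 CPM in 3 libraries left it out at 20 weeks. Slc25a20 at 28 weeks lost its call only under the replicate block (adjusted p = 0.0557). Slc25a24 at 20 weeks was called by DESeq2 (0.0204), without TMM (0.0420) and by limma on FPKM (0.0313 and 0.0293), Slc25a5 at 20 weeks in the model of 12 libraries (0.0486); the report gives the like for Slc25a30 and Slc25a28. Slc25a45 at 20 weeks was not called in that model (0.218) or with the 1 CPM filter (0.0516), nor was Slc25a27 at 28 weeks without the filter (0.0716). Slc25a21 at 20 weeks was called by limma on log2(FPKM + 0.5) (0.0475). Among the genes named in the text, none that was called changed direction, and other genes were not checked for this. Slc25a1 at 20 weeks, not called, ran from -0.045 to 0.25 with single libraries left out.

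The correlation of the deviations of same-numbered KO and Con libraries was -0.10, 0.32 and -0.17 at 20 weeks and -0.57, -0.10 and -0.47 at 28 weeks. With 3 libraries a group, these values cannot settle whether the replicate numbers pair the libraries. With the replicate number as a block, 2 members were lower at 20 weeks (Slc25a37 and Slc25a48), and at 28 weeks 332 genes were called, with 0 members higher and 1 lower.

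Low counts limit Slc25a48, Slc25a27 and Slc25a43, and 3 libraries a group limit all calls.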
